A study of Mus musculus with 6 samples.

Results

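The response of PA6 cells to FGF2 was followed here across all genes of the array. PA6 is a murine stromal line that is used as a feeder layer for differentiating ES cells. Confluent PA6 monolayers without ES cells were kept for 3 h in serum-free medium, either with no growth factor (-GFs) or with recombinant FGF2 at 20 ng/ml, and further wells received BMP4 at 10 ng/ml. Each replicate number has 1 array of each of these 3 kinds, and the 2 -GFs and 2 FGF2 arrays were taken as 2 pairs by this number. All samples come from the same cell line. The p-values rest on the spread between these replicate wells, which for each gene was drawn toward that typical of all genes. The genes described are those whose probe had a detection p-value under 0.05 on both arrays of -GFs or on both arrays of FGF2. They were 11546 of the 11872 genes tested, and 9949 of them were detected on all 4 arrays. The remaining 326 genes were detected on both arrays of the BMP4 group only.

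FGF2 binds FGF receptors together with heparan sulphate chains of the cell surface. The receptor tyrosine kinases then act through the adaptors FRS2, GRB2 and GAB1 on RAS and the MAP kinases ERK, and through phosphoinositide 3-kinase on AKT. ERK phosphorylates transcription factors that switch on immediate early genes without new protein synthesis, among them genes for its own inhibitors. AKT keeps FOXO transcription factors out of the nucleus, and growth factor signalling together with MYC favours the production of ribosomes. In stromal cells FGF2 is known as a mitogen and as an inducer of secreted angiogenic factors.

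The marker genes fitted the label of the cells. Of the 15 mesenchymal stromal markers on the array, 14 were detected on all 4 arrays, among them VIM, DCN, FN1 and CXCL12, and 1 was detected on none. No neural marker was detected on all 4 arrays, and of 10 endothelial markers 2 were (FLT1 and TEK) while PECAM1 and CDH5 were among the 7 detected on none. The haematopoietic, epithelial and pluripotent ES lists had 1 marker each on all 4 arrays (CSF1R, CDH1 and POU5F1), at a log2 intensity under 8. FLT1 was well above that, at 10.44 to 11.57. The summed intensity of the stromal markers was 160777 and 152271 on the -GFs arrays and 140075 and 139605 on the FGF2 arrays. Of the 8 markers of mature adipocytes 3 were detected on none of the 4 arrays, and ADIPOQ, CFD and CIDEC were higher in replicate 2 than in replicate 1 of both groups. The summed intensity of the 8 was 1203 and 4491 on the -GFs arrays of replicates 1 and 2, and 1293 and 3304 on the FGF2 arrays.

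After normalization and conversion to log2, FGF2 and -GFs were compared by limma on all 6 arrays, blocked by replicate number. A gene is described as called when its absolute log2 fold change was over 1 and its adjusted p under 0.1, the thresholds of the study's methods. By this rule 298 genes were higher with FGF2, 2.58% of all members, and 171 were lower, 1.48%, which is 4.06% in either direction. Every called gene moved the same way in both replicate pairs, and in 465 of the 469 both FGF2 arrays lay outside the range of both -GFs arrays. Both counts are largely set by the call, which was made on the same arrays. Over all members, both FGF2 arrays lay above both -GFs arrays in 25.1% and below them in 29.7%. For 160 of the called genes 202 further probes were kept, of which 201 had the same sign and 89 passed both thresholds in the same direction. Without the replicate block 271 genes were called higher (2.35%) and 148 lower (1.28%), and all of these 419 were also called with it. When each array was scaled to its median only, the calls were 237 higher and 233 lower, so that rises made up 50.4% of the calls rather than 63.5%. Under that scaling the median over all members was -0.10 on the log2 scale, against -0.02 with the spline. The adjusted p alone, with no fold threshold, was passed by 2150 members that were higher (18.6%) and 2312 that were lower (20.0%), which is 38.6% in either direction. Without the block these counts were 716 (6.20%) and 685 (5.93%), so that the number of smaller changes depends on the pairing. With each array scaled to its median only, 1540 higher and 2901 lower members passed the adjusted p alone, so their balance depends on the scaling. The called rises were larger at the top than the falls. Of the rises 31 exceeded 2 on the log2 scale and 9 exceeded 3, against 9 and 2 of the falls, while the medians were 1.29 for called rises and -1.21 for called falls. RNA was taken from whole wells, and a change in the cells present cannot be told apart from a change in RNA per cell. The call is a step on a continuous scale, as shown by SRF, the factor that binds CArG boxes, which was not called at 0.99, and by PAPPA, a protease of IGF binding proteins, which was called at 1.0.

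**Figure D1:**
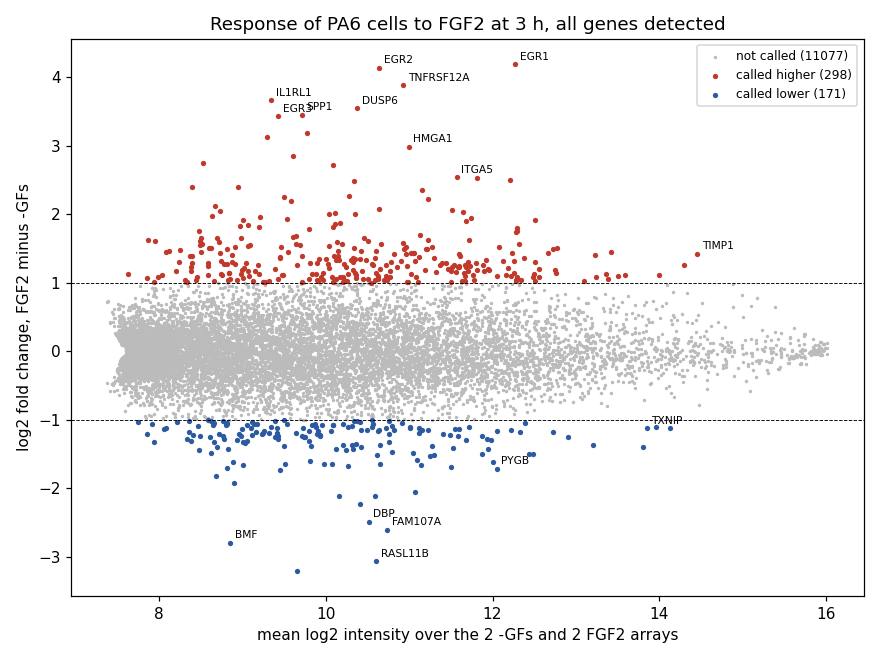
Log2 fold change of FGF2 minus -GFs (vertical axis) against the mean log2 intensity over the 4 arrays (horizontal axis) for each of the 11546 genes, with 298 called higher in red, 171 called lower in blue and dashed lines at a log2 fold change of 1 and -1. The highest points are EGR1 and EGR2, above 4, while the lowest lie near -3.

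**Figure D2:**
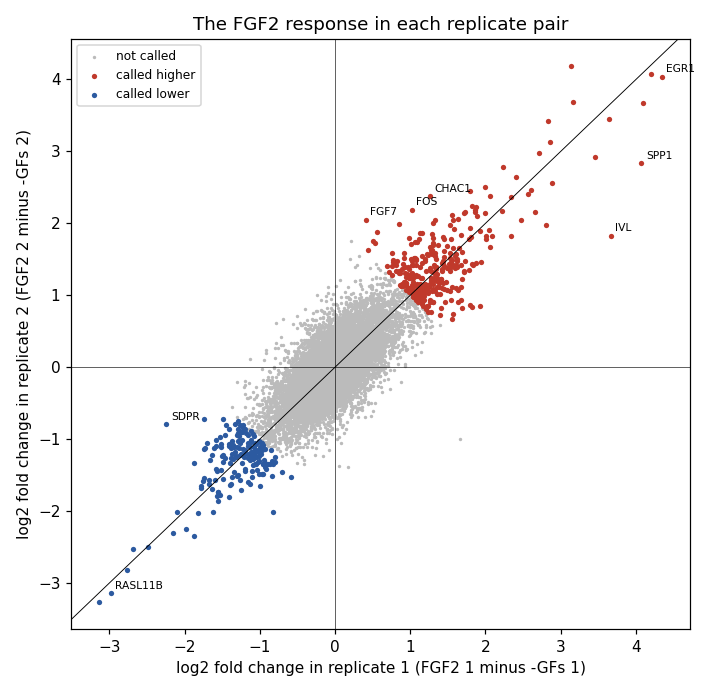
Log2 fold change within replicate 2 (vertical axis) against that within replicate 1 (horizontal axis) for each gene, with called genes in colour and the line of equal change. All 469 called genes lie in the quadrants of equal sign, and genes far from the line (IVL, FGF7, CHAC1, SDPR) differed in size between the pairs.

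Members were grouped into 50 lists of known function, which hold 1212 of the genes. The called genes in them were 76 that rose and 25 that fell, while 368 of the 469 called genes belong to no list. The list medians ran from 0.91 for immediate early transcription factors to -0.75 for FOXO factors and their targets, against -0.02 over all members. No list was tested as a set. The counts below can be read against the shares over all members, 2.58% and 1.48% for calls and 18.6% and 20.0% for the adjusted p alone.

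**Figure D3:**
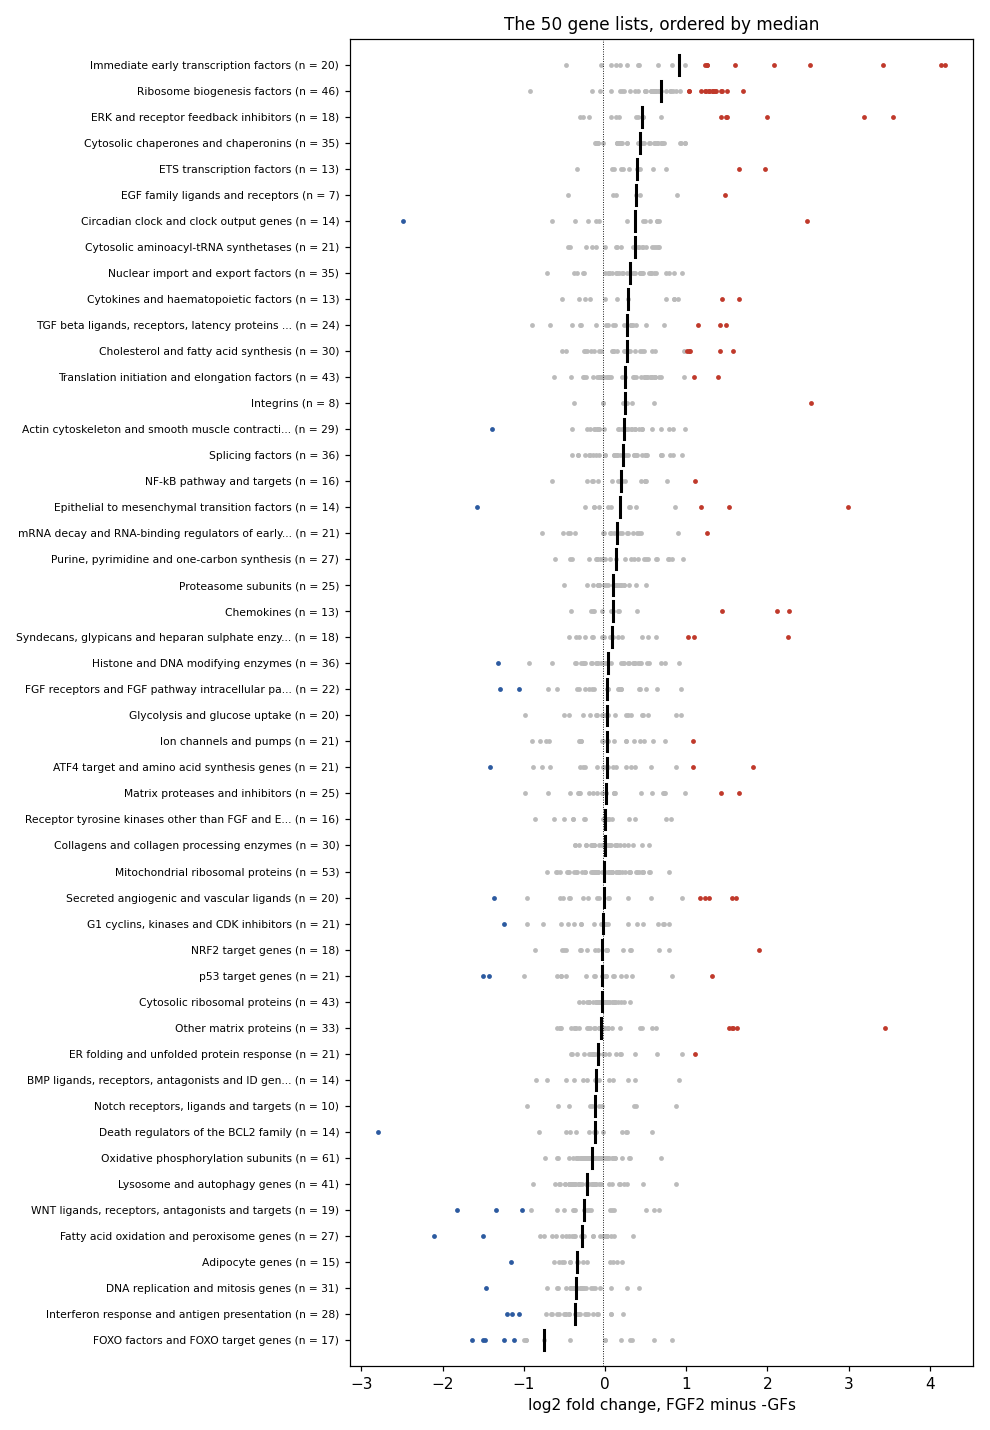
Log2 fold change of FGF2 minus -GFs (horizontal axis) for every member of each of the 50 lists (rows, ordered by median), with called rises in red, called falls in blue, other members in grey, a black bar at the list's median and a dotted line at the median of all 11546 genes. Immediate early and ribosome biogenesis genes stand at the top, and FOXO targets, interferon genes and mitosis genes at the bottom.

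Immediate early transcription factors had the highest median of all lists at 0.91, which was 0.41 with no detection filter. EGR1, a zinc finger factor induced by serum and growth factors, had the largest rise measured on both sides. It stood at a log2 intensity of 10.02 and 10.34 on the -GFs arrays and of 14.37 and 14.37 on the FGF2 arrays, a log2 fold change of 4.19 (adjusted p = 5.4e-11). Of 20 members, 9 were called higher and none lower, 14 passed the adjusted p alone as higher and 1 as lower, and without the block 9 passed it as higher. EGR2, of the same family, stood at 8.37 and 8.78 on the -GFs arrays and 12.57 and 12.85 on the FGF2 arrays. It rose by 4.14 on the log2 scale (standard error 0.14), with an adjusted p of 8.62e-13 from limma after Benjamini-Hochberg adjustment. Both FGF2 arrays were far above both -GFs arrays. Without the block the adjusted p from limma was 0.00456 for EGR1 and 0.00109 for EGR2. EGR3 went from 7.78 and 7.65 to 10.94 and 11.34, a log2 fold change of 3.43, although another detected probe of this gene gave 0.12. JUNB, an AP-1 subunit, went from 9.11 and 10.07 to 11.46 and 11.89, a log2 fold change of 2.08. FOS, the partner of the JUN proteins in AP-1, was at 7.71 and 7.65 without and at 8.73 and 9.84 with FGF2, so that its log2 fold change of 1.61 (standard error 0.21) differed between the pairs. The early growth regulator IER3 rose by 2.52 on the log2 scale. FOSB gave -0.49 and MYC 0.40 and neither was called.

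The immediate early promoters are known for CArG boxes, which bind the serum response factor. The EGR2 promoter carries such a box 72 bases upstream of the start that RefSeq gives for this transcript. EGR2 had the largest rise of the called genes with a promoter in the RefSeq table. The window shown is one of several for EGR2, not all of which hold the box (GRCm38.p6, chr10:67537619-67537918, plus strand, with the CArG box in capitals).
Egr2: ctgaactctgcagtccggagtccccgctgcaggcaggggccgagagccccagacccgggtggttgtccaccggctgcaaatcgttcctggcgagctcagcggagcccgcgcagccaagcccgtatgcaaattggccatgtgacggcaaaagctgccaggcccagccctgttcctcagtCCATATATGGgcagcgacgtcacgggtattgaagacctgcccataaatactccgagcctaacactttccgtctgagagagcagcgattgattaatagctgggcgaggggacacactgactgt
Of the 17 immediate early genes with a promoter in the RefSeq table, 2 (11.8%) had a CArG box in at least 1 window, against 6 of 211 called higher (2.8%), 1 of 120 called lower (0.8%), 1.7% of the 7443 members with a promoter and 1.8% of all 27025 genes in the table.

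Of 18 feedback inhibitors of ERK and of receptors, 6 were called higher and none lower, and 12 passed the adjusted p alone as higher (7 without the block). DUSP6, the phosphatase that acts on ERK in the cytoplasm, went from 8.47 and 8.74 on the -GFs arrays to 12.11 and 12.19 on the FGF2 arrays, which is 3.55 on the log2 scale (standard error 0.16) at an adjusted p of 3.71e-11. DUSP4, a nuclear phosphatase of the same family, went from 7.79 and 8.58 to 11.24 and 11.50, a log2 fold change of 3.19. Other detected probes of these genes gave 2.14 for DUSP6 and 2.45 and 0.97 for DUSP4. SPRED1, which holds back RAF activation, rose by 2.0 on the log2 scale. The list also includes feedback of other receptors, and CISH (1.5) and SOCS3 (1.5), inhibitors of cytokine receptor signalling, rose with LRIG1 (1.43), which promotes degradation of receptor tyrosine kinases. SPRY4 was undetected on both -GFs arrays, at least 1.37-fold below FGF2, and was not called. Among 13 ETS transcription factors, some of which ERK phosphorylates, 2 were called higher and none lower, and 7 passed the adjusted p alone as higher (3 without the block). ETV5 went from 7.60 and 7.70 to 9.64 and 9.61 (log2 fold change 1.97). ETV4, detected on 1 of the -GFs arrays, gave 1.65, and ETS2 gave 0.75 and was not called. Both ETV4 and ETV5 are known targets of FGF signalling.

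Of 46 ribosome biogenesis factors, which build ribosomes in the nucleolus, 16 were called higher and none lower, 43 had a log2 fold change above 0, and the median was 0.69. The adjusted p alone was passed by 38 as higher and 1 as lower, and without the block by 19 and 1. In 37 of the 46 both FGF2 arrays lay above both -GFs arrays, against 25.1% of all members. NOL5A, which is Nop56 and a core protein of box C/D small nucleolar ribonucleoproteins, went from 10.04 and 10.52 without to 11.99 and 11.98 with FGF2 (log2 fold change 1.70, standard error 0.15, adjusted p = 2.35e-07). NOL5, its partner Nop58, went from 10.36 and 9.85 to 11.81 and 11.25 (1.43). GNL3, or nucleostemin, a GTPase of the nucleolus, went from 12.01 and 12.04 to 13.63 and 13.43 (1.51). These pairs of arrays did not overlap between the groups. RRP12 (1.44), needed for export of ribosomal subunits, WDR43 (1.37), a subunit of the small subunit processome, and RRP9 (1.35), which binds the U3 small nucleolar RNA, complete the 6 largest rises. RRP9 was not called without the block (adjusted p = 0.116). NCL, or nucleolin, gave 0.66 and POLR1B, a subunit of RNA polymerase I, gave 0.92. Chosen after their values were seen, further genes of this kind outside the list were called higher, among them RRP15 (1.43), BXDC1 (1.46), LYAR (1.22), PPAN (1.19) and SDAD1 (1.11).

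The protein components of the ribosome were not called at 3 h. Of 43 cytosolic ribosomal protein genes none passed the adjusted p in either direction, the median was -0.04, and the largest values were -0.32 for RPLP0 and 0.31 for RPS25. Before adjustment, limma gave a p under 0.05 for 1 of them as higher and 1 as lower. RPLP0, of the ribosomal stalk, stood at 10.88 and 11.05 on the -GFs arrays and at 10.76 and 10.54 on the FGF2 arrays.

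Promoters of a pair of called biogenesis factors are shown because they hold the E-box CACGTG, the element read by MYC and related factors. The Nop2 gene, NOL1 on the array, encodes a methyltransferase of the large ribosomal subunit, and its E-box begins 60 bases upstream of the start (GRCm38.p6, chr6:125131633-125131932, plus strand, E-box in capitals). In the Wdr43 window the E-box lies downstream of the start (chr17:71615965-71616264, plus strand).
Nop2: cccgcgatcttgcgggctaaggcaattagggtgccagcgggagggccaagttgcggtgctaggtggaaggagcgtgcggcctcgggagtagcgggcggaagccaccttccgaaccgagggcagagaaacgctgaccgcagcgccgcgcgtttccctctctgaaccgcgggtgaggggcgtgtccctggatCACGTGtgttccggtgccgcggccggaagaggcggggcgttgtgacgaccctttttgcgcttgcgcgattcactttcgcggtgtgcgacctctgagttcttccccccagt
Wdr43: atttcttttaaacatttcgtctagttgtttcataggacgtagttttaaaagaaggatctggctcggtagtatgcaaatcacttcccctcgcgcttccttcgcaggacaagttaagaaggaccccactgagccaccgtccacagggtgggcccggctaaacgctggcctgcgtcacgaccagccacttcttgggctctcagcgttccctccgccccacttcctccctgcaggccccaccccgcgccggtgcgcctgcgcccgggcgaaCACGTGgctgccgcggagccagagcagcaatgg
NOL1 gave a log2 fold change of 1.33. Searched on both strands, CACGTG was found in 9 of the 42 biogenesis factors with a promoter (21.4%), in 25 of 211 genes called higher (11.8%), in 12 of 120 called lower (10.0%) and in 11.8% of all members with a promoter. Among all RefSeq genes in the table the share was 8.1%. CACGTG was also found in 4 of the 17 immediate early genes with a promoter. In the list of FOXO factors and their targets, which had the lowest median, 4 of the 16 genes with a promoter held it. Both shares were above that of the biogenesis factors, so the E-box was not particular to these.

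Of 43 translation factors 2 were called higher, EEF1E1 (1.39), a protein of the multisynthetase complex, and EIF1A (1.10), which helps the ribosome to scan for the start codon, while 21 passed the adjusted p alone as higher and 2 as lower. Without the block the counts were 7 and 0. None of 21 cytosolic aminoacyl-tRNA synthetase genes was called, and 12 passed the adjusted p alone as higher and 2 as lower (2 and 0 without the block), with EPRS at 0.67 and FARSB at 0.66. Cytosolic chaperones were similar, with none of 35 called, 20 past the adjusted p alone as higher and none as lower (6 and 0 without the block), and a median of 0.43. HSPA4, a nucleotide exchange factor for HSP70, was at 8.56 and 8.51 without and at 9.33 and 9.71 with FGF2 (0.99). Nuclear transport factors gave 17 higher and 3 lower of 35 by the adjusted p alone (5 and 1 without the block), led by the importin KPNA1 (0.94). Splicing factors gave 15 higher and 3 lower of 36 (6 and 0 without the block). For enzymes of nucleotide synthesis the counts were 11 and 3 of 27 (6 and 1 without the block), led by CTPS (0.96), which makes CTP, and CAD (0.83), which starts pyrimidine synthesis.

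The amino acid response was mixed. ATF4, its central transcription factor, went from 12.66 and 12.73 to 13.76 and 13.80 (log2 fold change 1.09), and CHAC1, an ATF4 target that degrades glutathione, rose by 1.82 with different sizes in the pairs (from 8.91 and 9.45 to 10.17 and 11.83). DDIT4, an inhibitor of mTORC1, fell from 12.56 and 12.74 to 11.29 and 11.17 (-1.42). Of the 21 members 5 passed the adjusted p alone as higher and 4 as lower, and the median was 0.02. In the list of ER folding and the unfolded protein response 1 of 21 was called, XBP1 (1.11), a transcription factor of that response, and the median was -0.08. None of 25 proteasome genes was called, and 1 passed the adjusted p alone in each direction.

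**Figure D4:**
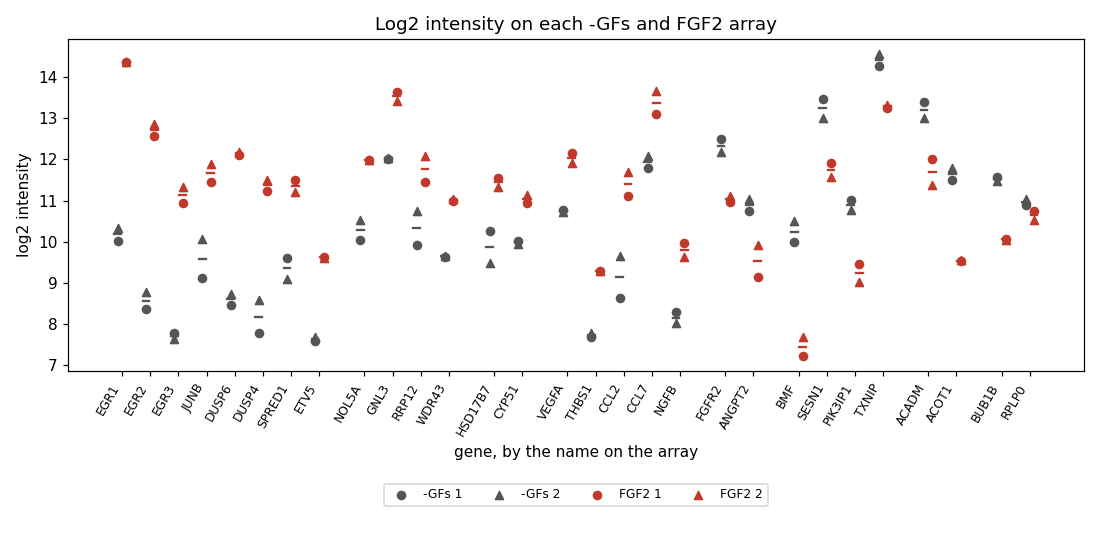
Log2 intensity (vertical axis) on each -GFs array (grey) and FGF2 array (red) for selected genes (horizontal axis, by array name), with circles for replicate 1, triangles for replicate 2 and bars at the group means. The groups from left to right are early and feedback genes, ribosome biogenesis, sterol synthesis, secreted factors, FGFR2 with ANGPT2, FOXO targets with BMF, fatty acid oxidation, and BUB1B with the ribosomal protein gene RPLP0. The distance between the groups is widest for EGR1 and EGR2 and narrowest for RPLP0 (-0.32).

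Of 30 genes of cholesterol and fatty acid synthesis 5 were called higher and none lower, and 12 passed the adjusted p alone as higher and 2 as lower (5 and 0 without the block). HSD17B7, a sterol ketoreductase, went from 10.26 and 9.48 without to 11.55 and 11.33 with FGF2 (log2 fold change 1.57, adjusted p = 5.51e-07). SC4MOL, or Msmo1, a sterol methyl oxidase, rose by 1.42, CYP51, which demethylates lanosterol, by 1.05, SCD1, the stearoyl-CoA desaturase, by 1.04, and STARD4, a sterol carrier, by 1.01. SC4MOL and STARD4 were not called without the block (adjusted p = 0.103 and 0.148). Of 27 genes of fatty acid oxidation and peroxisomes 2 were called lower and none higher, with 12 lower and 1 higher by the adjusted p alone (6 and 0 without the block) and a median of -0.28. ACADM, the medium-chain acyl-CoA dehydrogenase, went from 13.38 and 13.01 to 12.01 and 11.38 (-1.5), and ACOT1, a cytosolic acyl-CoA thioesterase, from 11.50 and 11.79 to 9.53 and 9.55 (-2.11). Both FGF2 arrays were below both -GFs arrays for these genes.

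Adipocyte genes had a median of -0.35. Of 15 members 1 was called lower, S3_12 (the array's name for the lipid droplet protein Plin4), which went from 10.88 and 11.54 to 9.92 and 10.20 (-1.15, adjusted p = 0.0659 without the block). The adjusted p alone was passed by 9 as lower and none as higher, but without the block by 1. The mature adipocyte markers above differ by replicate number (summed intensity 1203 and 1293 in replicate 1, 4491 and 3304 in replicate 2), and the part of this difference in the result was not tested. Glycolysis genes gave no call among 20 members, with SLC2A1, the glucose transporter GLUT1, at 0.94 and PFKM, the muscle form of phosphofructokinase, at -0.98. Of 61 subunits of oxidative phosphorylation none was called, 8 passed the adjusted p alone as lower and 1 as higher (2 and 1 without the block), and the median was -0.16. Mitochondrial ribosomal proteins gave no call, with 9 of 53 past the adjusted p alone in each direction. Lysosome and autophagy genes gave no call either among 41, while 16 passed the adjusted p alone as lower and 2 as higher (3 and 0 without the block), with NEU1, the lysosomal sialidase, at -0.88 and NPC1, the cholesterol exporter of lysosomes, at -0.61.

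FOXO factors and FOXO target genes had the lowest median of the lists at -0.75, which was -0.18 with no detection filter. The list had 5 of 17 called lower and none higher, and 10 lower and 2 higher by the adjusted p alone (8 and 1 without the block). PIK3IP1, an inhibitor of phosphoinositide 3-kinase, went from 11.03 and 10.77 on the -GFs arrays to 9.47 and 9.04 on the FGF2 arrays (log2 fold change -1.64, standard error 0.14, adjusted p = 1.15e-07). SESN1, a sestrin that restrains mTORC1, went from 13.47 and 13.01 to 11.90 and 11.57 (-1.5). TXNIP, which limits glucose uptake and thioredoxin activity, went from 14.26 and 14.56 to 13.26 and 13.33 (-1.12). GADD45B (-1.48), a stress sensor, and CCNG2 (-1.25), a cyclin linked to cell cycle exit, complete the called members. The factors themselves were not called, with FOXO1 at -0.00 and FOXO3 at 0.20, and IRS2, another target, at -0.01.

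The promoters of Sesn1 and Txnip are printed because they are the called genes of this list with the site GTAAACA or its complement, which FOXO proteins bind. It lies 121 bases upstream of the Txnip start (GRCm38.p6, chr3:96557707-96558006, plus strand) and downstream of the start in the Sesn1 window (chr10:41810324-41810623, plus strand), in capitals in both.
Sesn1: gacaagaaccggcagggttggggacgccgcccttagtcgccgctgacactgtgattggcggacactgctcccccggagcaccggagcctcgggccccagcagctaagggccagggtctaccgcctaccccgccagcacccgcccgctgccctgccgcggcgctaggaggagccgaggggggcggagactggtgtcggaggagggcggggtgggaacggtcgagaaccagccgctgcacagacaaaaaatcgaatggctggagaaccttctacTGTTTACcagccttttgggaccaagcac
Txnip: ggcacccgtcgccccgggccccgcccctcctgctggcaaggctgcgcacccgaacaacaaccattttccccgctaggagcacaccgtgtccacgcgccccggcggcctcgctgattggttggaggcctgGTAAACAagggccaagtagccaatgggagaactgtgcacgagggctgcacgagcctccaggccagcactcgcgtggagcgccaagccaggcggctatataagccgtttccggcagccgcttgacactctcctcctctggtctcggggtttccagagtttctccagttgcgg
Such a site was found in 2 of the 16 list members with a promoter (12.5%), in 3 of 120 genes called lower (2.5%), in 5 of 211 called higher (2.4%) and in 3.1% of all members with a promoter.

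Of 31 genes of DNA replication and mitosis 1 was called lower, BUB1B, a spindle checkpoint kinase, which went from 11.58 and 11.47 to 10.07 and 10.05 (-1.47), although another probe gave -0.67. The median of this list was -0.35, and 16 members passed the adjusted p alone as lower and 1 as higher (3 and 0 without the block). Among 21 G1 regulators the called member was CCNG2, already given, 6 passed the adjusted p alone in each direction (2 higher and 3 lower without the block), and the D cyclins CCND2 (0.79) and CCND1 (0.71) were below the fold threshold. In the BCL2 family the pro-apoptotic BMF had one of the largest falls of all genes, from 9.99 and 10.50 to 7.23 and 7.68 (-2.79, adjusted p = 1.05e-10), and was detected on 1 of the 2 FGF2 arrays. BCL2L11, or BIM, another pro-apoptotic protein of the family, gave -0.81 and was not called. Of 21 p53 targets 2 were called lower, SESN1 and TRP53INP1 (-1.43), a regulator of autophagy and cell death, and 1 higher, PLK3 (1.32), a stress-responsive kinase. TRP53INP1 was not called without the block (adjusted p = 0.161), while CDKN1A (0.02) and MDM2 (0.01), the best known targets, lay at 0. In the clock list DBP, an output factor that binds D-box elements, fell from 11.78 and 11.73 to 9.30 and 9.24 (-2.49). BHLHB2, or Bhlhe40, a repressor of the clock, rose from 9.03 and 9.16 to 11.60 and 11.56 (2.49). They were the called members of 14, and the adjusted p alone was passed by 7 as higher and 3 as lower (3 and 1 without the block). The clock median was 0.37 and ran from 0.004 to 0.47 across the alternatives.

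The cells changed several genes for signals that reach other cells. Among 20 secreted angiogenic and vascular ligands 5 were called higher and 1 lower, with a median of -0.02. The adjusted p alone was passed by 7 as higher and 6 as lower (5 and 3 without the block). VEGFA, the main growth factor of endothelium, went from 10.78 and 10.73 without to 12.16 and 11.92 with FGF2 (log2 fold change 1.29, standard error 0.14, adjusted p = 2e-06), and its other probe gave 1.45. THBS1, or thrombospondin 1, an inhibitor of angiogenesis that also activates latent TGFβ, went from 7.68 and 7.79 to 9.30 and 9.29 (1.56). ANGPT2, a ligand of the TIE2 receptor that destabilizes vessels, fell from 10.75 and 11.03 to 9.14 and 9.91 (-1.37). The list therefore holds called genes that favour and oppose vessel growth. SEMA7A, a membrane-anchored semaphorin, lacked detection on either -GFs array and rose at least 2.24-fold, a bound that sets the FGF2 mean against the lowest detected signal of the -GFs arrays. SEMA7A became a member through the FGF2 arrays, so the filter sets its direction. Of the FGF ligands, FGF18 rose by 1.17, and FGF7, or keratinocyte growth factor, gave 1.23 with values of 11.84 and 10.11 on the -GFs arrays and 12.25 and 12.16 on the FGF2 arrays. The call of FGF7 rested on the block (adjusted p = 0.227 without it).

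Chemokines, cytokines and EGF ligands were called only as rises. CCL2, which attracts monocytes, went from 8.65 and 9.65 to 11.12 and 11.70 (2.26), and CCL7, of the same family, from 11.80 and 12.09 to 13.10 and 13.66 (1.44). CXCL14, detected on 1 of the -GFs arrays, gave 2.12, and these were the 3 called of 13 chemokines, while the niche chemokine CXCL12 gave -0.42. Among 13 cytokines 2 were called. NGFB, or nerve growth factor, went from 8.29 and 8.02 to 9.97 and 9.63 (1.65), and LIF, which maintains ES cells, rose at least 2.31-fold from no detection on either -GFs array. LIF became a member through its detection on the FGF2 arrays, so its direction is set by the filter. CSF1, the macrophage growth factor, gave 0.90 and was not called. Of 7 EGF family genes HBEGF, a ligand of EGFR, rose by 1.47, and EGFR itself gave -0.46.

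Of 22 FGF receptors and intracellular parts of the pathway 2 were called lower and none higher. The adjusted p alone was passed by 5 in each direction (2 higher and 3 lower without the block), and the median was 0.03. FGFR2, a receptor of FGF2, went from 12.48 and 12.18 to 10.97 and 11.11 (log2 fold change -1.29, adjusted p = 3.65e-06, other probe -0.84), and GAB1, the adaptor that links the receptor to phosphoinositide 3-kinase, gave -1.06. The heparan sulphate list had 3 of 18 called higher and none lower. HS6ST1, which adds the 6-O-sulphates that FGF2 signalling needs, rose from 8.30 and 8.42 to 10.30 and 10.93 (2.25), and NDST1, which starts sulphation of the chains, rose by 1.09 with the core protein SDC1, or syndecan 1, by 1.02. None of 16 other receptor tyrosine kinases was called, with FLT1, a receptor of VEGFA, at 0.81 and EPHB4 at -0.86.

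Of 24 TGFβ pathway genes 3 were called higher and none lower, and 7 passed the adjusted p alone as higher and 3 as lower (3 and 1 without the block). SMAD3, a signal transducer of TGFβ, went from 11.84 and 12.11 to 13.29 and 13.64 (1.49), the ligand TGFB1 from 9.66 and 9.89 to 10.70 and 11.14 (1.14), and the receptor TGFBR1 gave 1.42, with 0.31 by another probe and an adjusted p of 0.168 without the block. In the WNT list 3 of 19 were called lower and none higher, the median was -0.26, and 9 passed the adjusted p alone as lower and 3 as higher (4 and 2 without the block). The receptor FZD2 fell from 9.50 and 9.67 to 7.88 and 7.66 (-1.82), and the ligand WNT5B from 9.69 and 9.70 to 8.11 and 8.60 (-1.34). AXIN2, a target and inhibitor of the pathway, was undetected on both FGF2 arrays and at least 1.59-fold lower. AXIN2 became a member through its detection on the -GFs arrays, so the filter sets its direction. No gene of the BMP and ID list was called among 14, with FST, or follistatin, at 0.91 and BMPER at -0.85. ID2 was undetected on both FGF2 arrays, at least 1.39-fold below -GFs. Among 10 Notch genes none was called either, with HEY1 at 0.88 and HES6 at -0.96.

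None of 30 collagens and collagen enzymes was called, 2 passed the adjusted p alone in each direction, and COL1A1 stood at 13.47 and 13.58 without and at 12.90 and 13.42 with FGF2. Of 33 other matrix genes 5 were called higher and none lower, and 9 passed the adjusted p alone as higher and 8 as lower (6 and 0 without the block). SPP1, or osteopontin, went from 8.07 and 7.90 to 12.14 and 10.74 (3.45, standard error 0.21). Its replicate pairs gave 4.07 and 2.83. The CCN proteins CTGF (1.57) and WISP1 (1.52) rose, and CYR61, not detected on the -GFs arrays, rose at least 2.13-fold, although its other probes gave 0.61 and 0.47. CYR61 became a member through the FGF2 arrays, so the filter sets its direction. THBS1, given above, is the fifth. Of 25 proteases and inhibitors PLAUR, the urokinase receptor, rose from 7.85 and 7.90 to 9.15 and 9.89 (1.65), and TIMP1, an inhibitor of matrix metalloproteinases, rose by 1.43. The fibronectin receptor subunit ITGA5 went from 10.03 and 10.58 to 12.64 and 13.05 (2.54, other probe 2.43) and was the called member of 8 integrins. In the actin list LMOD1, a nucleator in smooth muscle, fell by 1.39 on the log2 scale, none of 29 was called higher, and 11 passed the adjusted p alone as higher and 2 as lower (4 and 1 without the block).

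Factors of the epithelial to mesenchymal transition moved in opposite directions, with 3 of 14 called higher and 1 lower. SNAI1, a transcriptional repressor of E-cadherin, went from 10.40 and 10.61 to 11.93 and 12.12 (1.52, other probe 0.71), and its relative SNAI2 from 12.24 and 11.53 to 10.64 and 9.96 (-1.58). TWIST1, a stromal marker as well, rose by 1.18. HMGA1, an architectural chromatin protein, went from 9.40 and 9.59 to 12.26 and 12.71 (2.99), with 0.65 by another probe. ZEB1, ZEB2 and the other members of the list were not called.

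Of 28 interferon and antigen presentation genes 3 were called lower and none higher, and the median was -0.36. By the adjusted p alone 15 were lower and none higher, but without the block 2 were. TAP1, the peptide transporter, went from 8.90 and 9.75 to 7.84 and 8.39 (-1.20), with an adjusted p of 0.0786 without the block. USP18 (-1.15), which removes ISG15, and PSMB9 (-1.06), of the immunoproteasome, were not called without it (adjusted p = 0.245 and 0.173). The replicates of USP18 differed more than its groups, at 10.41 and 11.73 on the -GFs arrays and at 9.29 and 10.55 on the FGF2 arrays.

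In each of the following stress and regulatory lists 1 gene was called, to be read against 4.06% of all members called in either direction. SRXN1, a sulfiredoxin of the NRF2 response, went from 10.71 and 10.76 to 12.71 and 12.55 (1.90) and was the called member of 18, with GSTM1 at -0.86 and NQO1 not called. TNFAIP2 (1.11), not called when arrays were scaled to the median, was the called member of 16 NF-kB genes. ZFP36, or tristetraprolin, which destabilizes early transcripts, rose from 10.12 and 10.57 to 11.51 and 11.69 (1.25) and was the called member of 21 genes of mRNA decay. HDAC11, a histone deacetylase, was undetected on both FGF2 arrays and at least 2.01-fold lower, the called member of 36 chromatin enzymes. HDAC11 became a member through its detection on the -GFs arrays, so the filter sets its direction. ATP2A2, the calcium pump SERCA2, rose by 1.09 among 21 channels and pumps.

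Several of the largest changes belong to none of the lists above. TNFRSF12A, the receptor of the cytokine TWEAK, went from 8.86 and 9.12 to 12.95 and 12.78 (3.88, standard error 0.15). CCRN4L, or nocturnin, a NADP(H) phosphatase with clock-dependent expression, rose by 2.84. GFPT2, which feeds glucose into hexosamine synthesis, rose by 2.03, and GPRC5A, an orphan receptor, by 2.20. RASL11B, a RAS-like protein, went from 12.09 and 12.18 to 9.11 and 9.04 (-3.06, other probe -2.89), and FAM107A, an actin-associated protein, from 12.01 and 12.06 to 9.33 and 9.54 (-2.60). Further falls were those of ARHGEF19 (-2.23), a guanine nucleotide exchange factor, DDIT4L (-2.06), a relative of DDIT4, HYAL1 (-1.92), a hyaluronidase, PYGB (-1.72), a glycogen phosphorylase, CDON (-1.65), a co-receptor of hedgehog signalling, NFATC4 (-1.61), a calcium-dependent transcription factor, and PRICKLE1 (-1.52), of planar cell polarity. TLR2, a receptor of bacterial lipoproteins, fell from 11.20 and 11.73 to 9.46 and 10.19 (-1.64). SDPR (-1.52), a caveolar protein, was at 12.95 and 11.17 without and at 10.71 and 10.38 with FGF2, and was not called without the block (adjusted p = 0.21).

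Genes at the edge of detection have only a bound, which uses the mean of the detected group and not its lower array. Of 242 members undetected on both -GFs arrays 11 were called higher, and of 264 undetected on both FGF2 arrays 5 were called lower. The largest bound was that of IL1RL1, the receptor of interleukin 33, at least 12-fold, with 10.55 and 11.80 on the FGF2 arrays. IVL, or involucrin, followed at 4.94-fold (10.81 and 8.99), SSTR2, a somatostatin receptor, at 4.0-fold (9.91 and 9.27) and GJA4, the vascular connexin 37, at 2.38-fold. These genes became members through their detection on the FGF2 arrays, so the direction is set by the filter. The same holds for LIF, SEMA7A and CYR61 above. Members undetected on both FGF2 arrays, such as AXIN2 and HDAC11, entered through the -GFs arrays, which likewise sets their direction.

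BMP4, which signals through SMAD proteins, was given to wells with the same replicate numbers and sets the FGF2 response beside that of another growth factor. Both comparisons use the same -GFs arrays, so their values are set side by side and the direct difference of FGF2 and BMP4 was tested. In that direct comparison 3.60% of all members passed both thresholds. Of the 469 genes called for FGF2, 333 also differed from BMP4 by both thresholds in the same direction, 222 of the 298 rises and 111 of the 171 falls. The direct comparison uses the FGF2 arrays by which these genes were called, so its direction in them is largely set by that choice. The median change with BMP4 was 0.06 over the called rises and -0.18 over the called falls, and 3 of the 469 had an absolute log2 fold change over 1 with BMP4. Over all members the median absolute log2 fold change was 0.25 with FGF2 and 0.11 with BMP4. By list, 10 of 46 ribosome biogenesis factors, 10 of 20 immediate early factors and 6 of 18 feedback inhibitors were higher with FGF2 than with BMP4 by both thresholds, and 5 of 17 FOXO genes were lower. CTGF had changes in the same direction with both factors, 1.57 with FGF2 and 1.11 with BMP4, and MRGPRF, an orphan receptor, gave -1.60 and -1.22. Among the called genes whose BMP4 value had the opposite sign were CISH (1.5 and -0.74), SMAD3 (1.49 and -0.53), SNAI2 (-1.58 and 0.59) and RASL11B (-3.06 and 0.51), chosen after their values were seen. The adjusted p of the BMP4 value was 0.0519 for CISH, 0.228 for SMAD3, 0.192 for SNAI2 and 0.279 for RASL11B. ID2, a direct target of BMP signalling, gave 1.72 with BMP4 and was undetected on both FGF2 arrays.

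**Figure D5:**
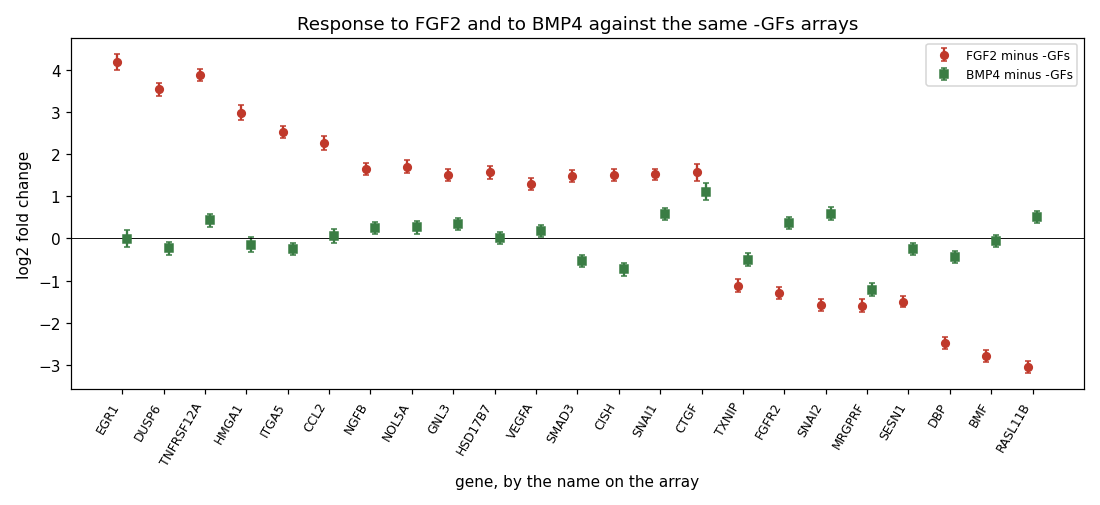
Log2 fold change against the -GFs arrays (vertical axis) with FGF2 (red circles) and with BMP4 (green squares) for selected called genes (horizontal axis, by array name), with bars of 1 standard error from limma. BMP4 values lie near 0 for most genes, while CTGF and MRGPRF moved with both factors and SMAD3, CISH, SNAI2 and RASL11B gave values of opposite sign.

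Further promoter motifs were counted in the same way, as a description without a test. The RefSeq table held promoters of 211 genes called higher, 120 called lower and 7443 members. Both strands of each window were searched for every motif, and a gene counts when at least 1 of its windows holds a match. The AP-1 site TGANTCA was found in 7.1% of genes called higher, 6.7% of those called lower and 6.3% of all members. The ETS core ACCGGAA was found in 8.5%, 5.0% and 8.7%. The cyclic AMP element TGACGTCA was found in 3.3%, 1.7% and 3.6%. The D-box TTATGNAA was found in 2.4%, 2.5% and 2.5%. CCAAT, the letters of the NF-Y site, was found in 37.4% of genes called higher, 56.7% of those called lower and 43% of members. The remaining shares for called higher, called lower and all members were 7.6%, 7.5% and 8.9% for the TATA box TATAAA, 72.5%, 72.5% and 69.9% for the SP1 site GGGCGG, 1.4%, 1.7% and 1.0% for the E2F site TTTGGCGC, and 11.4%, 16.7% and 14.5% for the TEAD site GGAATG. Over all RefSeq genes in the table these sites were found in 9.0% (AP-1), 4.2% (ETS), 2.0% (cyclic AMP), 4.0% (D-box), 41.1% (CCAAT), 15.7% (TATA), 38.2% (SP1), 0.6% (E2F) and 16.6% (TEAD), and GTAAACA in 4.1%. These shares are descriptions of short windows, and no match says only that the letters are not in the window.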

How the data were processed

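Labelled cRNA from each well was measured on 1 Illumina mouse whole-genome BeadChip array. The authors deposited mean bead intensity per probe, with no normalization between arrays, and a detection p-value. The methods name cubic spline normalization in GenomeStudio (version 2011.01 in the submitters' processing notes). From the intensities of 45281 probes the spline step was rewritten (R 4.3.3, 452 quantiles), and values were converted to log2. The median intensity per array ran from 153.4 to 168.1, and 15509 to 16459 probes were detected per array. A probe was kept when both arrays of a group had a detection p below 0.05, which left 16111 probes, and each gene took its probe with the largest mean. For 3135 members several probes were available. limma 3.58.1 was fitted to all 6 arrays with 3 groups and the replicate number as a block (2 residual degrees of freedom). Its standard errors and p-values draw each gene's spread toward that of all genes, with 16.06 prior degrees of freedom. The p-values were adjusted by Benjamini-Hochberg over all 11872 genes. A design with 2 arrays a group limits the precision of each value. An exact permutation test of 2 against 2 arrays that ignores the pairs cannot go below 0.333. The code was tested on simulated data.

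The labels give the replicate number by which the arrays were paired. Deviations from the group means of arrays with the same number correlated across genes (-GFs and FGF2 0.602, -GFs and BMP4 0.741, FGF2 and BMP4 0.579). The table's 9 unlabelled columns (2045 lines with values) and 6 stray lines were not used. Array names are partly old, and 9735 members matched a current symbol or unshared synonym in RefSeq (GRCm38.p6). Of the called names, 427 had a current symbol and these were 418 genes. Counting each gene once gives 289 higher and 171 lower. Promoters are from RefSeq, GRCm38.p6.

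The members, gene lists and tests were chosen with earlier results of these data known. Named genes are the 30 largest called rises and falls measured on both sides, from which examples are given, the 6 largest called members of each list (the 3 largest of any kind where fewer than 3 were called), the 10 largest bounds and the cell type markers. Genes named outside this rule, such as well known list members with small values, were chosen after their values were seen. The alternatives tried were no block, quantile normalization, neqc with an offset of 16, median scaling, the 4 arrays alone and other detection filters. Further ones were the mean of a gene's probes, trend and robust moderation, an adjusted p under 0.05, each array left out, and an unpaired t-test. The study names this t-test in its general statistics, while its array section names limma.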

Additional observations from a re-analysis of the deposited data

How the results depend on the processing

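The counts of 298 rises and 171 falls remained within 1.5 times of their values under every alternative except 2. With neqc they were 623 and 514, with 728 rather than 333 of the called genes also past both thresholds against BMP4 in the same direction. The unpaired t-test after Benjamini-Hochberg adjustment gave 0 and 0, with 0 and 0 by the adjusted p alone. It is not the study's array test, which was limma. That t-test at an unadjusted p under 0.05 with the same fold gave 202 rises and 124 falls, and 790 and 985 genes with no fold threshold. The 2150 rises and 2312 falls past the adjusted p alone became 716 and 685 with no replicate block. The cause of these differences was not tested, except that leaving out an array leaves fewer samples.

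With 1 of the 6 arrays left out, the lone remaining array of that group being assumed to vary like the others, the counts ranged from 298 to 355 rises, 171 to 217 falls, 1381 to 2091 rises and 1415 to 2156 falls past the adjusted p alone, and 317 to 385 called genes also past both thresholds against BMP4 in the same direction.

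All 469 called genes kept their sign under every alternative in which they were tested. For the 131 called genes named by the rule, 1393 of 1419 values under alternatives with limma remained called and 26 did not, and 759 of 786 did with 1 array left out and 27 did not. With the unpaired t-test 100 of 262 did. Calls lost without -GFs replicate 2 were those of ATF4, AXIN2, CYP51, EIF1A, FGF7, GAB1, KRT13, STARD4, TXNIP and USP18, and without -GFs replicate 1 those of SDC1 and XBP1. Without FGF2 replicate 1 they were ATF4, SCD1, SDPR, STARD4, USP18 and XBP1, and without FGF2 replicate 2 AXIN2, CYP51, EIF1A, FGF18, FGF7, KRT13, NDST1, S3_12 and SC4MOL. With a gene's probes averaged ACSL4 (0.85), CYR61, NDST1, RASSF2, SDC1, TGFBR1 and USP18 were not called, and ACSL4 was also not called with only probes detected on all 6 arrays (0.38). With median scaling ATF4, CYP51, SCD1, SDC1, STARD4, TNFAIP2 and XBP1 were not called, and with trend and robust moderation FGF7 and IVL. Across the alternatives the list median ran from 0.41 to 1.24 for immediate early factors, from 0.62 to 0.91 for ribosome biogenesis, from -0.90 to -0.18 for the FOXO list and from -0.51 to -0.32 for interferon genes, so the ranks at both ends can change. The median also ran from -0.58 to -0.15 for adipocyte genes, from -0.39 to -0.15 for fatty acid oxidation and from -0.43 to -0.16 for the WNT list. Probes near background limit the sizes of low genes, as for those with a bound, and neqc enlarged them (BMF -4.37).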
